A study of Mus musculus with 32 samples.

Results

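The 10 genes described here are the immediate early genes of the T-cell receptor (TCR) response: the nuclear receptors Nr4a1, Nr4a2 and Nr4a3, the zinc-finger factors Egr1, Egr2 and Egr3, and the AP-1 subunits Fos, Fosb, Jun and Junb. They were taken by symbol from an expression table of 16741 genes, and 10 of 10 were present. The table covers 31 bulk RNA libraries of sorted donor T cells in 10 groups, from a mouse model of graft-versus-host disease in which C57Bl6 cells were transferred into Balb/c recipients across a major mismatch. CD4 conventional T cells and CD8 T cells each gave 2 libraries of donor cells before transfer (day 0), 3 after transfer to syngeneic recipients, 4 to allogeneic recipients and 4 to Treg-treated recipients, which are allogeneic recipients given regulatory T cells (Treg) on day 0. Treg gave 2 libraries at day 0 and 3 recovered from Treg-treated recipients. The cells came from spleen and lymph nodes. The sample titles place recovery at day 6, whereas the series design text gives day 8. The strain and conditioning of the syngeneic recipients, and whether several animals were pooled in a library, are not given in the sources used here. No group carries a deletion or a transgene in the labels.

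Immediate early genes are transcribed within minutes of TCR engagement without new protein synthesis, through calcium and calcineurin to NFAT and through Ras and ERK to serum response factor and its partners, and their messages are unstable. NR4A proteins are orphan receptors whose level follows TCR signal strength, and they restrain effector programmes in T cells. EGR2 and EGR3 do likewise and are linked to unresponsiveness, EGR1 is a shared target of ERK, and FOS and JUN proteins pair to form AP-1. The same genes, AP-1 above all, are also induced by tissue dissociation and cell stress.

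Promoter sequences are shown first because the 3 Nr4a genes share a feature there. RefSeq windows (build GRCm38.p6) of the 250 bases before the start site were used for 8 of the 10 genes, all but Egr1 and Egr3. The choice of windows left out 1 chromosome for these genes but not for the windows of all genes. The core of the cyclic-AMP response element, the site family bound by CREB, was searched as TGACG on both strands. This motif was chosen after the sequences had been read. It occurred 4 times in each Nr4a window, and at least 4 copies occurred in 45 of 32851 windows of all genes, 0.137%. Fos had 2 copies, Fosb and Junb 1 each and Jun 0, and 17.8% of all windows had at least 1. Capitals mark these cores and, in Nr4a1 and Nr4a2, an EGR site GCGNGGGCG, which is also in the Fosb window and in 4.7% of all windows. The Nr4a1 window is chr15:101266596-101266845 on the + strand, the Nr4a2 window chr2:57124004-57124253 on the - strand, the Nr4a3 window chr4:48045055-48045304 on the + strand and the Fos window chr12:85473640-85473889 on the + strand.
Nr4a1: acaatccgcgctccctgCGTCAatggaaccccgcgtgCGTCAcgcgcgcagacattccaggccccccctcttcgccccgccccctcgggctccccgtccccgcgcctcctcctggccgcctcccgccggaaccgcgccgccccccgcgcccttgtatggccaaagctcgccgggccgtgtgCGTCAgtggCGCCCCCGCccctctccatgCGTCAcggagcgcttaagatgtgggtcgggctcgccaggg
Nr4a2: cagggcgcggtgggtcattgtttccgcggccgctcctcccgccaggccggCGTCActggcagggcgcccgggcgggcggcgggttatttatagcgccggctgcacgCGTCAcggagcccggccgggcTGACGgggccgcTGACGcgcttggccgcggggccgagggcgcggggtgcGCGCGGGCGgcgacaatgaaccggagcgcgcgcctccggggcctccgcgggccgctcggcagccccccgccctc
Nr4a3: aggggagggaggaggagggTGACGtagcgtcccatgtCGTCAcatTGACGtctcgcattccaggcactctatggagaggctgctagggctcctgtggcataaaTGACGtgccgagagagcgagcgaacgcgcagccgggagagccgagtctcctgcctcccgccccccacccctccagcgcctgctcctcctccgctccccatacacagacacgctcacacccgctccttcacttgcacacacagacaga
Fos: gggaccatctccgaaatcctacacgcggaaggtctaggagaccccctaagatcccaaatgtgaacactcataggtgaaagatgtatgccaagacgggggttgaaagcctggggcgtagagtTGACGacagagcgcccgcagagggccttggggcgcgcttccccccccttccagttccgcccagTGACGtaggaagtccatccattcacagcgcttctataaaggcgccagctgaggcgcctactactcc
In Egr2, the gene of the 10 with the lowest adjusted p between CD8 and CD4 cells below, 30 bases at chr10:67537794-67537823 on the + strand, 75 to 46 bases before 1 of its 5 annotated start sites, hold a CArG box, the serum response factor site (CC, 6 bases of A or T, GG), and a core. The CArG box occurs in 1.47% of all windows.
Egr2: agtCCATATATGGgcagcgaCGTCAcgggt
The full 8-base element TGACGTCA, the AP-1 site TGANTCA and the NR4A site AAAGGTCA, on both strands, were not found in these windows, which says only that these letters are not there. A match is a description of letters and not evidence of binding.

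All values are normalised counts, scaled between libraries by the authors, so that they compare libraries but not genes, since gene length was not divided out. Read depth is unknown, and the mean value per gene of a library lay between 1227 and 2385. Cd4 was 8722 to 21480 in the CD4 libraries of the day 0, allogeneic and Treg-treated groups and 8.76 to 92.8 in all CD8 libraries, where Cd8a was 14160 to 61115. One library stood apart. In CD4 syngeneic JL019-2, the myeloid genes S100a8 and Lyz2 reached 1511210 and 825480, Cd4 was 1659 and Cd8a 1956. The main tests of CD4 syngeneic cells are therefore also given without it. Group means, counts over recipients and correlations include it. Foxp3, the factor that defines Treg, was 198 to 442 in the Treg day 0 libraries and 978 to 1145 in the CD4 day 0 libraries, against the labels, whereas Il2ra was 11229 to 13064 and 1923 to 1981. Replicates carry a prefix, JL019 or JL027, and a number. Nothing says whether a library is 1 animal, so p-values measure only the spread between these libraries, and in bulk RNA fewer expressing cells and less RNA per cell cannot be told apart.

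Each of the 10 genes was detected in each of the 31 libraries, with ranges from 10.4-fold (Egr1) to 94-fold (Nr4a3) between the lowest and the highest library. For 9 of the 10 genes the mean was highest in Treg day 0, the exception being Nr4a2, which was highest in CD8 Treg-treated cells. The lowest mean was in CD8 day 0 cells for Nr4a1, Nr4a3, Fos and Junb, in CD4 day 0 cells for Nr4a2 and Fosb, in CD8 allogeneic cells for Egr2 and Egr3, and in CD8 Treg-treated cells for Egr1 and Jun. With the groups ordered by their mean, each gene has 9 pairs of neighbours. All neighbours overlapped in their library values for Nr4a1, Egr1, Egr3 and Junb, all but 1 pair for Nr4a2, Nr4a3, Fos and Fosb, and all but 2 pairs for Egr2 and Jun.

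**Figure D1:**
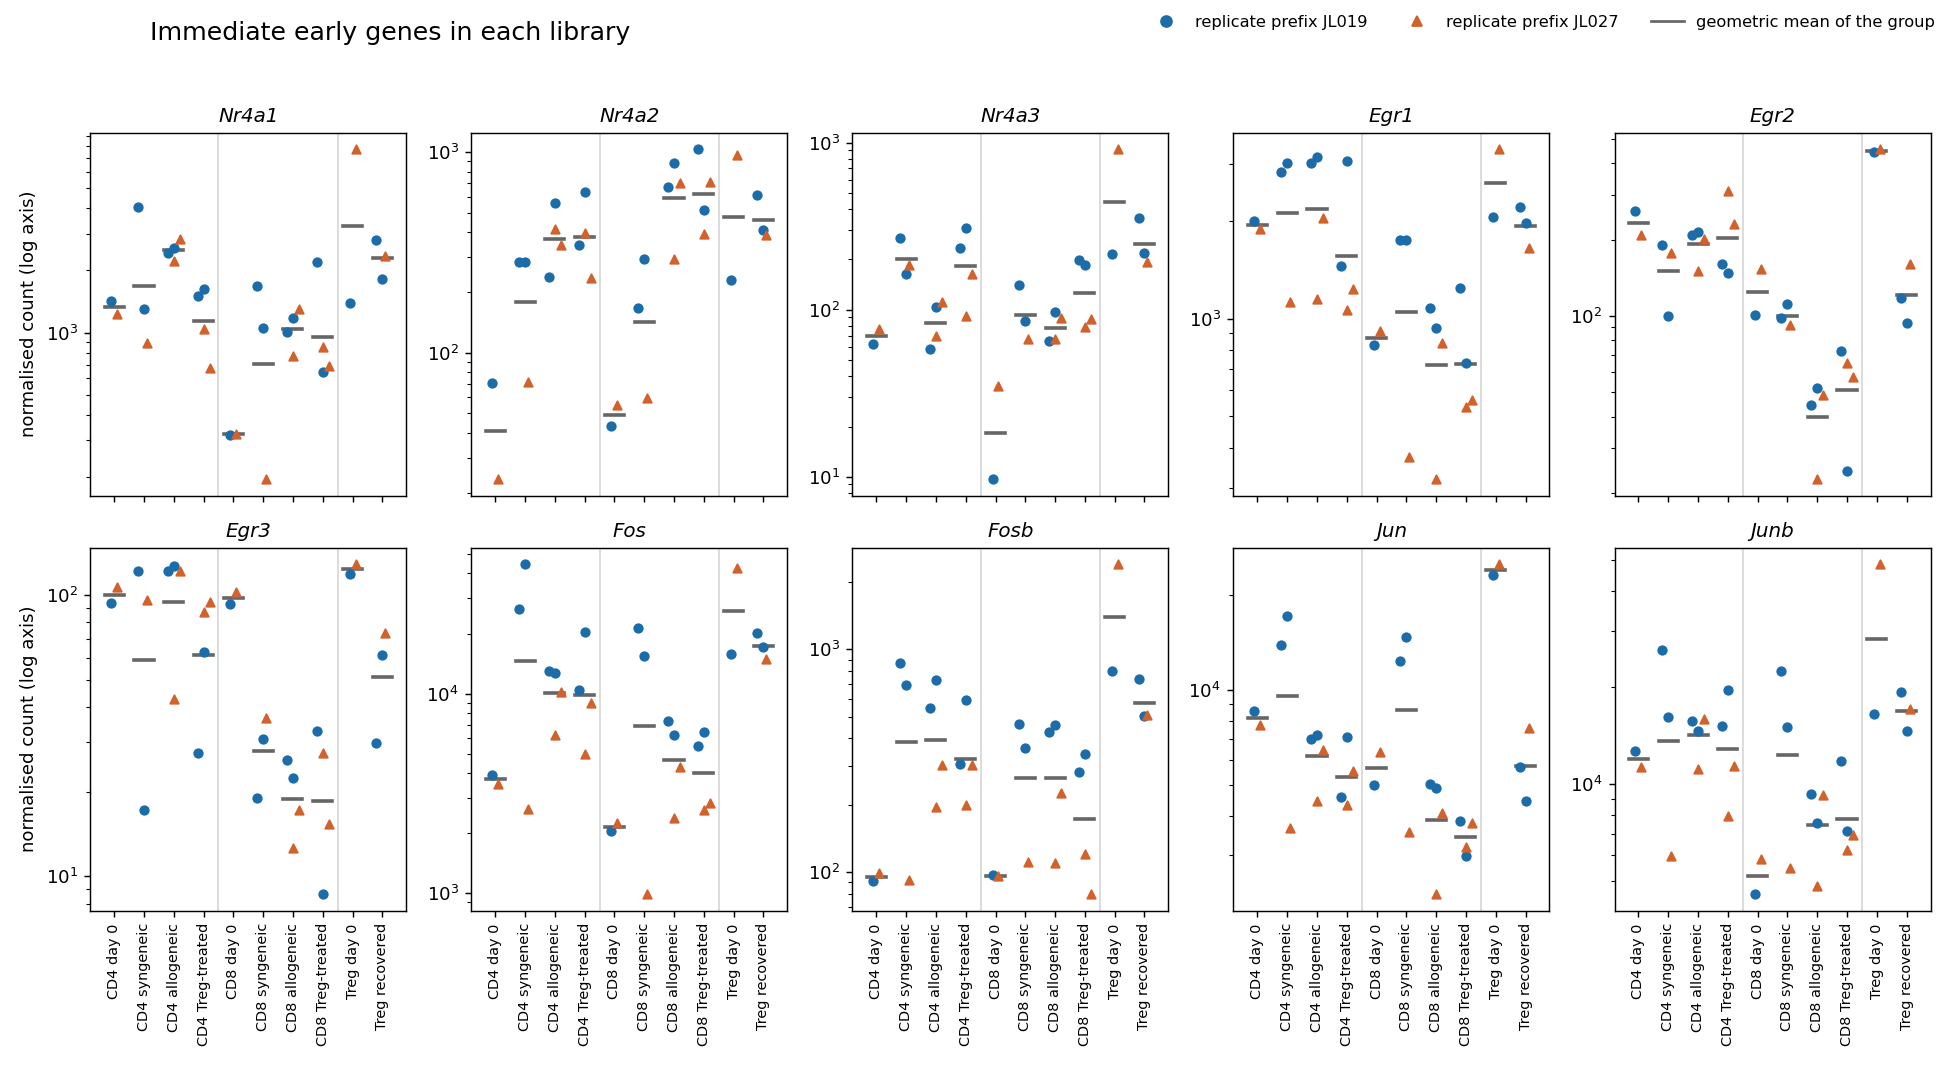
Normalised count (log axis) of each gene in each library, by group. Circles and triangles are libraries of the JL019 and JL027 prefix and bars are geometric means. The JL027 syngeneic libraries lie far below the JL019 ones for Fos (2628 against 26656 and 44466 in CD4 cells), and Egr2 and Egr3 are lowest in CD8 cells of allogeneic and Treg-treated recipients.

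Nr4a2 rose after transplantation into allogeneic recipients in both cell types, and Nr4a3 rose and Egr2 and Egr3 fell in CD8 cells. Nr4a2 was 71.0 and 23.5 in CD4 day 0 cells and 239, 556, 413 and 345 in CD4 allogeneic cells. In CD8 cells it was 43.3 and 55.2 at day 0 and 670, 883, 294 and 707 in allogeneic recipients. In neither cell type did the groups overlap, which held for 55.1% of all genes in CD4 and 49.9% in CD8 cells. The change was 3.15 ± 0.63 on the log2 scale in CD4 cells (SE, adjusted p = 0.000448, limma) and 3.57 ± 0.63 in CD8 cells (adjusted p = 8.61e-05, limma). Allogeneic and syngeneic cells were each compared with the same day 0 libraries of their cell type.

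Nr4a3, which can stand in for Nr4a1 in restraining T cells, was 9.70 and 34.9 in CD8 day 0 cells and 64.6, 96.7, 66.9 and 89.6 in CD8 allogeneic cells. It rose by 2.01 ± 0.54 (adjusted p = 0.00546, limma), but without the day 0 library JL019 by 1.14 (adjusted p = 0.271). Egr2 was 101 and 153 in CD8 day 0 cells and 44.4, 52.0, 22.7 and 48.8 in CD8 allogeneic cells, all 4 below the day 0 libraries. It fell by 1.61 ± 0.40 on the log2 scale (adjusted p = 0.00291, limma), or by 1.31 without the day 0 library JL027 (adjusted p = 0.0573). Egr3, the closest relative of Egr2, went from 93.1 and 103 to 26.0, 22.4, 12.6 and 17.2 and fell by 2.31 ± 0.63 (adjusted p = 0.00629, limma). In CD4 cells, Egr2 was 260 and 208 at day 0 and 209, 215, 151 and 202 in allogeneic recipients, with overlapping groups and a change of -0.27 ± 0.40 (adjusted p = 0.702). With the replicate label as a block, these Nr4a2, Nr4a3, Egr2 and Egr3 calls against day 0 were all lost (adjusted p from 0.0595 to 0.276, limma). The difference between CD8 and CD4 cells in the change from day 0 was not tested.

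Of the 10 genes, 1 changed between CD4 allogeneic and CD4 day 0 cells, where 24.0% of all genes did, and 4 changed between CD8 allogeneic and CD8 day 0 cells, where 30.4% did. Neither share can be read as particular to these genes. Their median change was 0.25 in CD4 cells, against -0.04 over all genes, and 0.82 in CD8 cells, against -0.13. Fosb, an inducible FOS relative, missed the threshold in CD4 cells (2.03 ± 0.75, adjusted p = 0.0501) and passed it without CD4 allogeneic library JL027-1 (2.36, adjusted p = 0.0318). Nr4a1 missed it as narrowly in CD8 cells (1.70, adjusted p = 0.0503) and passed without CD8 allogeneic library JL027-1 (adjusted p = 0.0484). Of 10 other ways of processing, 6 brought Fosb past the threshold and 6 Nr4a1. The 10 include a fit with no minimum mean, which equals the main fit because no gene was under the minimum. With syngeneic recipients, 1 gene changed from day 0 in CD4 cells (13.0% of all genes), Nr4a2 by 2.10 ± 0.67 (adjusted p = 0.0361, limma). It was 283, 284 and 71.3 in the 3 CD4 syngeneic libraries, and the call was lost without JL019-1 (adjusted p = 0.096), without the myeloid-rich JL019-2 (1.77, adjusted p = 0.16) or without the day 0 library JL027 (adjusted p = 0.433). In CD8 syngeneic cells 1 gene changed (24.2% of all genes), Nr4a3, which was 141, 85.7 and 67.1 and rose by 2.27 ± 0.57 (adjusted p = 0.00595, limma). That call was lost without the CD8 day 0 library JL019 (adjusted p = 0.24). Egr3 narrowly missed the threshold in CD8 syngeneic cells (-1.78, adjusted p = 0.0514, limma) and passed under 6 of 10 other ways of processing. It was 19.0, 30.9 and 36.6 there, with no overlap with day 0 (51.5% of all genes). Leaving out the CD8 syngeneic library JL027 raised the count to 5, with Nr4a1 at 2.04, Nr4a2 at 2.16, Nr4a3 at 2.50, Fos at 3.07 and Junb at 1.83. Leaving out the CD4 syngeneic library JL027 raised it to 3, with Nr4a2 at 2.76, Fos at 3.21 and Fosb at 3.02. With the myeloid-rich library also left out, Fosb alone passed (3.18, adjusted p = 0.0354).

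Markers of other cells moved in these comparisons with day 0. In CD4 allogeneic cells 7 of 14 myeloid genes were higher, with sums of 5859 to 11613 against 967 and 1897, and 4 of 11 B cell genes lower, with sums of 277 to 365 against 670 and 862. Cd14, C1qa and C1qc were at 0 in both CD4 day 0 libraries. In CD8 allogeneic cells 5 myeloid genes were higher and 3 lower, and 7 of 11 B cell, 4 of 9 erythroid and 3 of 6 NK cell genes were lower, with B cell sums of 805 to 1082 against 2176 and 2876 and erythroid sums of 599 to 14866 against 32032 and 36155. NK cell sums were 2013 to 2463 in CD8 allogeneic cells and 1783 and 2071 at day 0, and Klra8 was at 0 in all 4 CD8 allogeneic libraries. In CD4 syngeneic cells 14 of 14 myeloid, 5 of 9 erythroid and 6 of 13 heat shock genes were higher than at day 0, and in CD8 syngeneic cells 5 of 13 heat shock and 3 of 14 myeloid genes were higher, 9 of 11 B cell and 4 of 9 erythroid genes lower, and 2 of 6 NK cell genes higher and 1 lower. Sums in CD8 syngeneic cells were 38712 to 63361 against 4127 and 5543 for myeloid, 3342 to 11178 against 32032 and 36155 for erythroid and 8164 to 9321 against 1783 and 2071 for NK cell genes. Of 5 Treg genes, which activated T cells also express in part, 3 were higher in CD8 allogeneic cells than at day 0, with sums of 19053 to 25999 against 730 and 985, 2 were higher and 2 lower in CD4 allogeneic cells, 1 was higher and 2 lower in CD8 syngeneic cells and 1 was lower in CD4 syngeneic cells. The part of these lists in the results was not tested.

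Against the syngeneic control, CD8 allogeneic cells had more Nr4a2 and less Egr2 and Jun, while no gene of the 10 passed the threshold in CD4 cells. Nr4a2 was 167, 294 and 59.7 in CD8 syngeneic cells against 294 to 883 in allogeneic ones, higher by 2.04 ± 0.56 (adjusted p = 0.0092, limma), or with adjusted p = 0.122 without the syngeneic library JL027. Egr2 was 98.3, 112 and 92.0 against 22.7 to 52.0, with no overlap (30.3% of all genes), and was lower, at -1.30 ± 0.35 (adjusted p = 0.00813, limma). Within the prefixes the Egr2 difference was -1.11 (JL019) and -1.44 (JL027).

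Jun, the main partner of FOS, was 12313, 14682 and 3559 in CD8 syngeneic cells and 5041, 4901, 2266 and 4097 in CD8 allogeneic cells, so that the groups overlapped through the JL027 syngeneic library. The difference was -1.15 ± 0.42 (adjusted p = 0.0489, limma), -1.44 within JL019 and -0.22 within JL027. The Jun call was lost without syngeneic JL019-1 (adjusted p = 0.217) or JL019-2 (adjusted p = 0.238), or without allogeneic JL019-2 (adjusted p = 0.0525), JL027-1 (adjusted p = 0.152) or JL027-2 (adjusted p = 0.0762). It was lost also with a pseudocount of 0.1 (adjusted p = 0.0503), with the length trend removed (0.0897) and with only the groups compared (0.103). In all, 3 of 10 genes differed, against 21.1% of all genes, and the median change was -0.54 against 0.02 over all genes.

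In CD4 cells 0 of 10 differed between allogeneic and syngeneic recipients by limma (14.6% of all genes did), and 1 had an unadjusted p under 0.05. That gene was Nr4a3, at 270, 164 and 184 in syngeneic and 58.2, 104, 70.0 and 111 in allogeneic cells. Its groups did not overlap, as was true of 23.2% of all genes, and the difference was -1.27 ± 0.48 (adjusted p = 0.0755), or -1.42 (adjusted p = 0.0977) without the myeloid-rich library. Without the CD4 syngeneic library JL027 the count was 1, Jun at -1.31 (adjusted p = 0.0197), and with the myeloid-rich library also left out Jun was -1.16 (adjusted p = 0.237). The spread within the syngeneic groups was wide. Fos was 26656, 44466 and 2628 in CD4 and 21290, 15422 and 990 in CD8 syngeneic cells, against 12970, 12714, 6225 and 10211 in CD4 and 7290, 6195, 2393 and 4290 in CD8 allogeneic cells. For Fos, the allogeneic minus syngeneic difference in CD4 cells was -1.42 within JL019 and 1.60 within JL027. In CD8 cells it was -1.43 and 1.69, so the direction differed between the prefixes. Without the myeloid-rich library the CD4 difference within JL019 was -1.05. By the labels, the JL027 syngeneic CD4 and CD8 libraries come from 1 recipient, so prefix and recipient cannot be told apart here.

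Heat shock and handling stress genes, a list of 13 that marks stress of the cells, moved with this comparison. In allogeneic cells 9 of 13 were lower in CD4 and 9 of 13 in CD8 cells, led by the HSP70 genes Hspa1a (-3.96 and -5.08) and Hspa1b (-3.78 and -4.96). Their summed level was 279269, 271565 and 138092 in CD4 syngeneic libraries JL019-1, JL019-2 and JL027, 339095, 384572 and 186633 in the matching CD8 libraries, and 114178 to 128708 and 115642 to 154554 in CD4 and CD8 allogeneic ones. The JL027 syngeneic recipient was thus lowest of the 3 both in Fos and in this sum. Myeloid genes also moved, 10 of 14 being lower in CD4 and 6 lower and 2 higher in CD8 allogeneic cells, with summed levels of 79474 to 3653080 in CD4 syngeneic and 5859 to 11613 in CD4 allogeneic libraries, and 38712 to 63361 and 8249 to 12527 in CD8. None of the 14 was at 0 throughout these groups. Of the erythroid genes 5 of 9 were lower in CD4 allogeneic cells, with sums of 492 to 10836 against 4920 to 469036, and of the NK cell genes 4 of 6 were lower in CD8 allogeneic cells, with sums of 2013 to 2463 against 8164 to 9321. Of the Treg genes 4 of 5 were higher in CD8 allogeneic cells, with sums of 19053 to 25999 against 440 to 575 and Foxp3 at 103 to 453 against 0 to 3.52, and 2 of 5 were higher in CD4 allogeneic cells. The part of these lists in the results was not tested.

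The effect of allogeneic against syngeneic recipients was compared between CD8 and CD4 cells directly. By limma 0 of 10 genes passed (4.65% of all genes did), 1 with an unadjusted p under 0.05. This was Egr2, whose change was -1.30 ± 0.35 in CD8 and 0.36 ± 0.35 in CD4 cells. The difference of the changes was -1.66 ± 0.50 (adjusted p = 0.0527), and with the recipient as a block it passed (adjusted p = 0.0274, 5.92% of all genes called). Without CD4 syngeneic JL019-1 it passed (-1.83, adjusted p = 0.0401), whereas without the myeloid-rich library it was -1.37 (adjusted p = 0.158), or -1.29 with the recipient as a block (adjusted p = 0.0683). Over the 14 libraries left out in turn the adjusted p ran from 0.0401 to 0.158, and it was under 0.05 in that 1 case. Of the marker lists, 4 of 5 Treg and 3 of 14 myeloid genes had a higher change in CD8 than in CD4 cells and 2 of 6 NK cell and 2 of 8 T cell genes a lower one, all 8 T cell genes having an unadjusted p under 0.05, and their part was not tested. The median of the differences over the 10 genes was -0.28, against 0.01 over all genes.

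Between Treg-treated and allogeneic recipients none of the 10 genes passed the threshold in either cell type, though Nr4a1 and Nr4a3 did in CD4 cells under some alternatives. In CD4 cells Nr4a1 was 1509, 1625, 1037 and 670 with Treg and 2419, 2570, 2217 and 2845 without. The groups did not overlap, as was true of 22.2% of all genes, and the difference was -1.13 ± 0.54 (adjusted p = 0.124, limma). It was -0.67 within JL019 and -1.59 within JL027. Nr4a3 had the opposite sign, with 235, 307, 92.1 and 164 in CD4 Treg-treated cells against 58.2 to 111 in allogeneic ones and a difference of 1.12 ± 0.44 (adjusted p = 0.0652), 1.78 within JL019 and 0.47 within JL027. It passed without CD4 Treg-treated JL027-1 (1.45, adjusted p = 0.0153) and under 5 of 10 other ways of processing (adjusted p from 0.006, with array weights, to 0.0478, with the length trend removed). The fit with no minimum mean, which equals the main fit, is among the 10. Nr4a1 passed under 2 of the 10, with array weights (adjusted p = 0.0442) and with only the groups compared (0.0133). These 2 related receptors therefore had differences of opposite sign in the same libraries.

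By limma 0 of 10 genes passed in CD4 cells (22.2% of all genes did, 2 of the 10 had an unadjusted p under 0.05) and 0 of 10 in CD8 cells (0.0657% of all genes, 0 with an unadjusted p under 0.05). In CD8 cells the estimates ran from -0.60 ± 0.61 for Fosb to 0.69 ± 0.44 for Nr4a3. The Treg effect differed between CD8 and CD4 cells for 0 of 10 genes (0.00597% of all genes, 0 with an unadjusted p under 0.05), with a largest difference of 1.00 ± 0.76 for Nr4a1. The standard errors in both cell types were 0.33 to 0.74 on the log2 scale. Both comparisons share the allogeneic libraries with those against syngeneic cells. Heat shock genes moved here too, 7 of 13 being higher in CD4 Treg-treated cells (Hsp90aa1 by 1.76 and Hsp90ab1 by 1.23), with sums of 213232 to 253151 against 114178 to 128708. In CD8 cells 0 of 13 passed and 10 had an unadjusted p under 0.05, with sums of 185951 to 256565 against 115642 to 154554. Myeloid sums were 24153 to 88761 in CD4 Treg-treated cells against 5859 to 11613, with 2 of 14 genes higher and 1 lower, and 14703 to 37929 against 8249 to 12527 in CD8 cells, with 0 of 14 passing and 3 with an unadjusted p under 0.05. Of 9 erythroid genes in CD4 cells 0 passed and 6 had an unadjusted p under 0.05, with sums of 5531 to 62658 against 492 to 10836. The part of these lists was not tested.

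**Figure D2:**
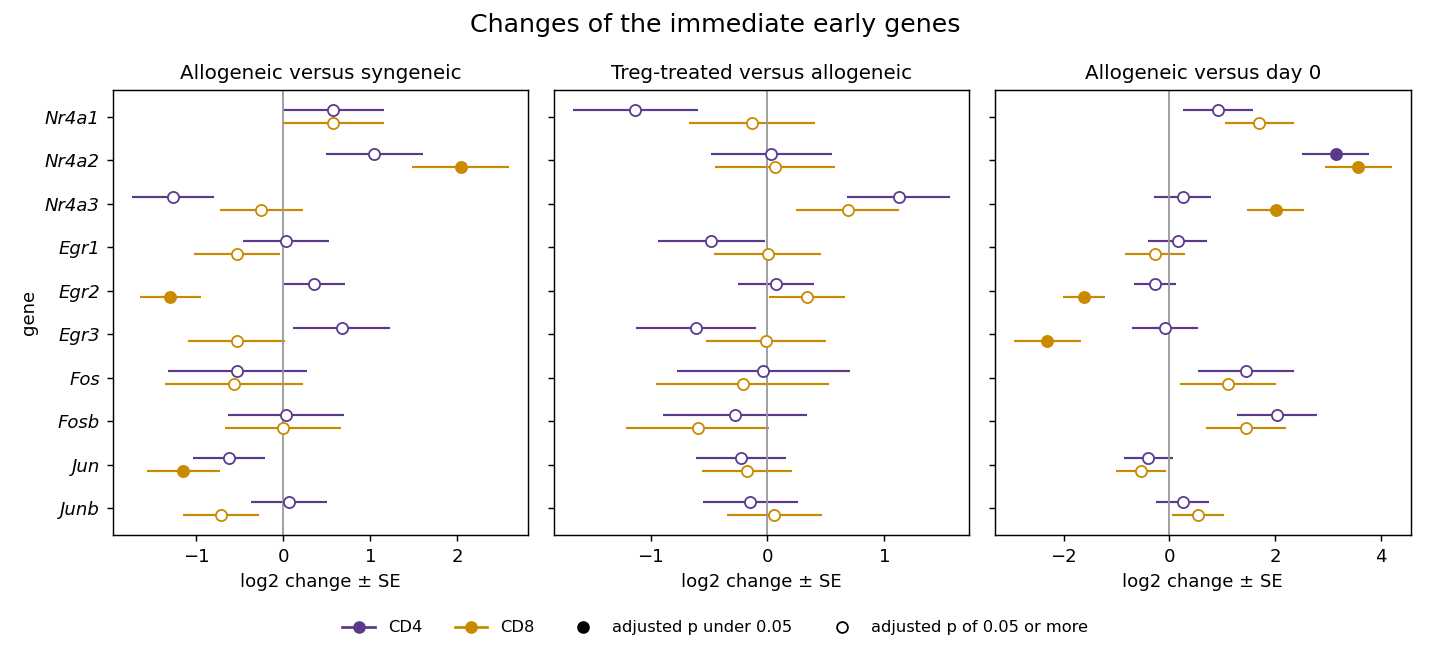
Change on the log2 scale (limma estimate ± SE) of each gene in CD4 and CD8 cells for 3 comparisons. Filled points passed an adjusted p of 0.05. Only CD8 cells have filled points against syngeneic cells (Nr4a2, Egr2 and Jun), none is filled for Treg-treated against allogeneic, and Nr4a2 is filled in both cell types against day 0.

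Within a recipient, CD8 cells had lower levels than CD4 cells for most of these genes. The labels join a CD4 and a CD8 library in 11 recipients. Egr1, Fos, Jun and Junb were lower in CD8 cells in 11 of 11 recipients, Egr2, Nr4a3 and Fosb in 10, Nr4a1 and Egr3 in 9 and Nr4a2 in 5. Of all genes, 3.19% were lower in CD8 cells in every recipient and 3.12% were higher.

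Egr2 and Egr3 stood furthest apart in allogeneic recipients. Egr2 was 209 in CD4 and 44.4 in CD8 cells of recipient JL019-1, 215 and 52.0 in JL019-2, 151 and 22.7 in JL027-1, and 202 and 48.8 in JL027-2. The CD4 level was thus 4.13 to 6.63 times the CD8 level in each recipient, and the CD8 minus CD4 difference on the log2 scale was -2.23 ± 0.31 (SD, n = 4). The limma estimate was -2.23 ± 0.33 (SE, adjusted p = 3.94e-05). Egr3 was 122 and 26.0, 126 and 22.4, 42.6 and 12.6, and 122 and 17.2 in the same recipients, in that order, an estimate of -2.27 ± 0.51 (adjusted p = 0.006). Egr1 was 3015 and 1078, 3155 and 934, 1145 and 320, and 2041 and 838, an estimate of -1.59 ± 0.46 (adjusted p = 0.0333). In none of the 3 genes did the CD4 and CD8 groups overlap, as was true of 18.7% of all genes. The Egr1 call was lost without CD4 allogeneic JL019-1 (adjusted p = 0.116), JL019-2 (0.129) or JL027-2 (0.0662), or without CD8 allogeneic JL027-1 (0.169) or JL027-2 (0.0594), whereas those of Egr2 and Egr3 were kept without any 1 of the 8 libraries.

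In Treg-treated recipients Egr2 and Egr1 were again lower in CD8 cells in each recipient. Without a block for the recipient, Egr1 did not pass there (-1.11, adjusted p = 0.139, limma). Egr2 was 160 and 72.6 in CD4 and CD8 cells of recipient JL019-1, 147 and 24.4 in JL019-2, 311 and 65.3 in JL027-1 and 230 and 57.5 in JL027-2, with an estimate of -1.97 ± 0.33 (adjusted p = 0.000138, limma). Egr3 was 27.4 and 32.8, 62.9 and 8.66, 87.4 and 27.4, and 94.4 and 15.3, so that the first recipient went the other way. Its estimate was -1.67 ± 0.51 (adjusted p = 0.0381, limma), lost without CD4 Treg-treated JL019-2 (adjusted p = 0.083), JL027-1 (0.069) or JL027-2 (0.134) or CD8 Treg-treated JL019-2 (0.0843) or JL027-2 (0.103), and also with the length trend removed (0.0519), the replicate label as a block (0.0501) or only the groups compared (0.116). In syngeneic recipients Egr2 was 190 and 98.3, 100 and 112, and 178 and 92.0, the recipient with the myeloid-rich CD4 library being the one without a lower CD8 value.

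Without a block for the recipient, CD8 and CD4 cells differed in 0 of 10 genes at day 0 by limma (3.32% of all genes, 3 with an unadjusted p under 0.05) and in 0 of 10 in syngeneic recipients (12.0%, 1 with an unadjusted p under 0.05). They differed in 3 of 10 in allogeneic recipients (6.15%) and in 2 of 10 in Treg-treated recipients (9.61%). With the recipient, or the prefix at day 0, as a block, the counts were 3 (3.86% of all genes), 3 (13.7%), 6 (7.0%) and 5 (11.3%). The genes added in allogeneic recipients were Fos at -1.12 ± 0.26 (adjusted p = 0.0126), Jun at -0.67 ± 0.17 (adjusted p = 0.0218) and Junb at -0.92 ± 0.23 (adjusted p = 0.0194). In Treg-treated recipients Egr1, Fos and Jun were added, in syngeneic recipients Nr4a3, Egr1 and Fos passed, and at day 0 Nr4a1, Nr4a3 and Junb, all lower in CD8 cells. The block takes the libraries of a recipient to vary together, and over genes their deviations from the group means had r of 0.22 to 0.66 in the 4 allogeneic recipients and -0.18 to 0.68 in the Treg-treated ones, but 0.26, -0.32 and -0.19 in the syngeneic ones and -0.35 at day 0. At day 0 the differences within JL019 and JL027 were -2.16 and -1.92 for Nr4a1, -2.57 and -1.12 for Nr4a3 and -1.48 and -0.95 for Junb. With array weights, which down-weight discordant libraries, Fos in syngeneic recipients was instead higher in CD8 cells, by 1.40 (adjusted p = 0.0407), and Jun and Junb were too, by 0.83 and 0.93 (adjusted p = 0.0147 and 0.0238). With the recipient as a block and without the myeloid-rich library, the Fos call was lost (-0.87, adjusted p = 0.0661), Nr4a3 (adjusted p = 0.0307) and Egr1 (adjusted p = 0.0164) were kept, and Nr4a1 and Egr3 were added (adjusted p = 0.015 and 0.0197). At day 0, 3 of 9 erythroid genes were higher in CD8 cells (9 with an unadjusted p under 0.05), with sums of 32032 and 36155 against 790 and 1466, 3 of 6 NK cell genes, 1 of 11 B cell genes and 1 of 13 heat shock genes were higher and 4 of 5 Treg genes lower. In syngeneic recipients 5 of 6 NK cell and 2 of 8 T cell genes were higher in CD8 cells, and 5 of 5 Treg, 4 of 14 myeloid and 2 of 9 erythroid genes were lower. In Treg-treated recipients 2 of 6 NK cell genes were higher in CD8 cells, 1 B cell gene was higher and 2 lower, and 1 Treg gene was lower. The part of these was not tested. Without the myeloid-rich library, Egr3 passed in syngeneic recipients with no block (-1.92, adjusted p = 0.0241).

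Nr4a2 had no common direction. In allogeneic recipients it was 239 in CD4 and 670 in CD8 cells of JL019-1, 556 and 883 in JL019-2, 413 and 294 in JL027-1, and 345 and 707 in JL027-2, an estimate of 0.67 ± 0.52 (adjusted p = 0.559, limma). Fos, by contrast, was 12970 and 7290, 12714 and 6195, 6225 and 2393, and 10211 and 4290 in those recipients, lower in CD8 cells in each although the groups overlapped. Heat shock sums overlapped between CD4 and CD8 cells of allogeneic recipients, and 0 of 13 heat shock genes and 0 of 14 myeloid genes passed the threshold there. Of 6 NK cell genes, 3 were higher in CD8 cells, with sums of 2013 to 2463 against 524 to 682, and the part of these was not tested.

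**Figure D3:**
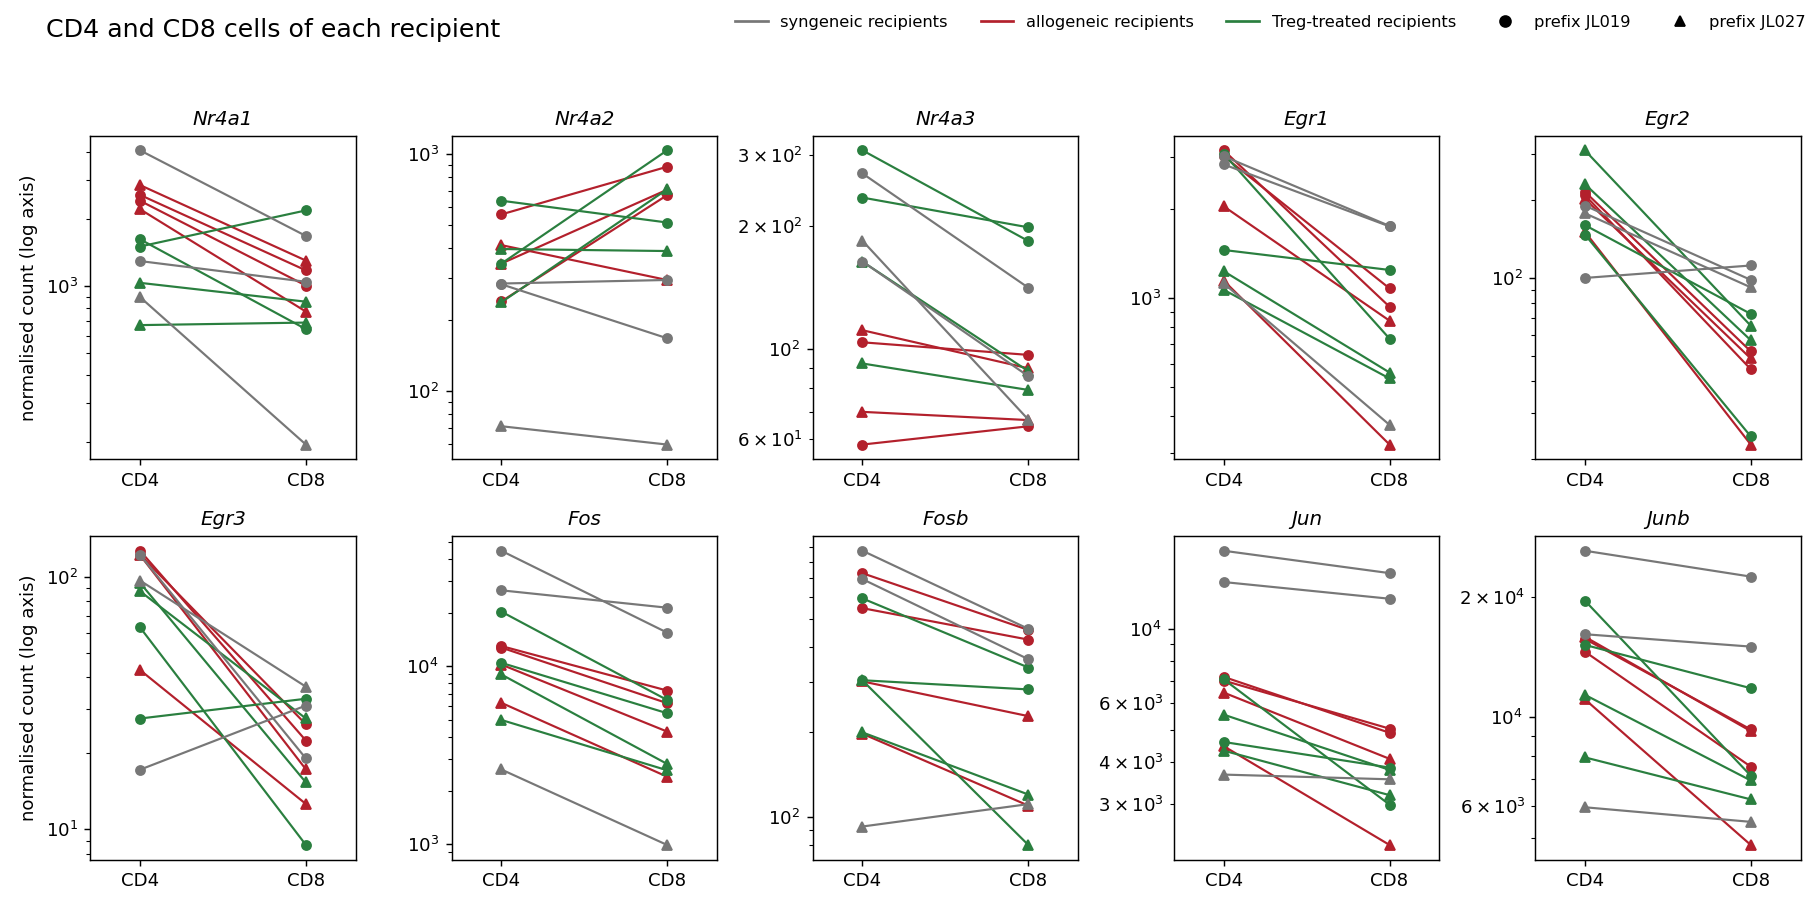
Normalised count (log axis) in the CD4 and the CD8 library of each of 11 recipients, joined by a line. Colours give the recipient group and symbols the prefix. Lines for Egr1, Fos, Jun and Junb fall from CD4 to CD8 in all 11 recipients, and those for Nr4a2 fall in 5.

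Levels in CD4 and CD8 cells of the same recipient also went up and down together for the AP-1 genes, Nr4a1, Nr4a3 and Egr1. Each library was set against the mean of its group. CD4 and CD8 cells of a recipient lay on the same side in 11 of 11 recipients for Nr4a3, in 10 for Fos, Fosb and Junb, in 9 for Nr4a1, Egr1 and Jun, in 7 for Egr2, 5 for Egr3 and 4 for Nr4a2. The median over 11611 genes with a mean of at least 50 was 6 recipients, and 8.39% of these genes reached 9 or more. The correlation of the CD4 and CD8 deviations over the 11 recipients, which share prefix and handling, was 0.95 for Fos and 0.90 for Jun, as a description. It was 0.87 for Nr4a3, 0.86 for Junb, 0.85 for Fosb, 0.78 for Egr1 and 0.71 for Nr4a1. For Egr2 and Nr4a2 it was 0.43, and for Egr3 -0.10.

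Over all 31 libraries, the deviations from group means set Egr2 and Egr3 apart from most of the other genes. Fos, Fosb, Jun, Junb and Egr1 rose and fell together, with Pearson r of 0.77 to 0.89 among them, and Nr4a1 went with Junb at 0.89 and with Fos at 0.71. With Fos, Fosb, Jun, Junb and Egr1, r was 0.69 (Fosb) to 0.77 (Junb) for Nr4a2. For Nr4a3 it was lower, from 0.26 (Jun) to 0.66 (Junb). Egr2 and Egr3 went together at 0.71 and lay between -0.26 and 0.24 with each of the other 8 genes. These points share library, recipient and prefix, so the values describe the libraries. EGR1 and EGR2 proteins bind the same DNA site, and Egr1 and Egr2 had an r of 0.13 here. Without the group means taken off, r over the 31 libraries was higher between Egr2 and Egr1 (0.65), Jun (0.63) and Junb (0.54), and was 0.86 between Egr2 and Egr3. Egr2 with Fos (0.35) and Fosb (0.29), and Egr3 with Fos (0.13), Fosb (0.14) and Junb (0.31), had lower values on that scale too.

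**Figure D4:**
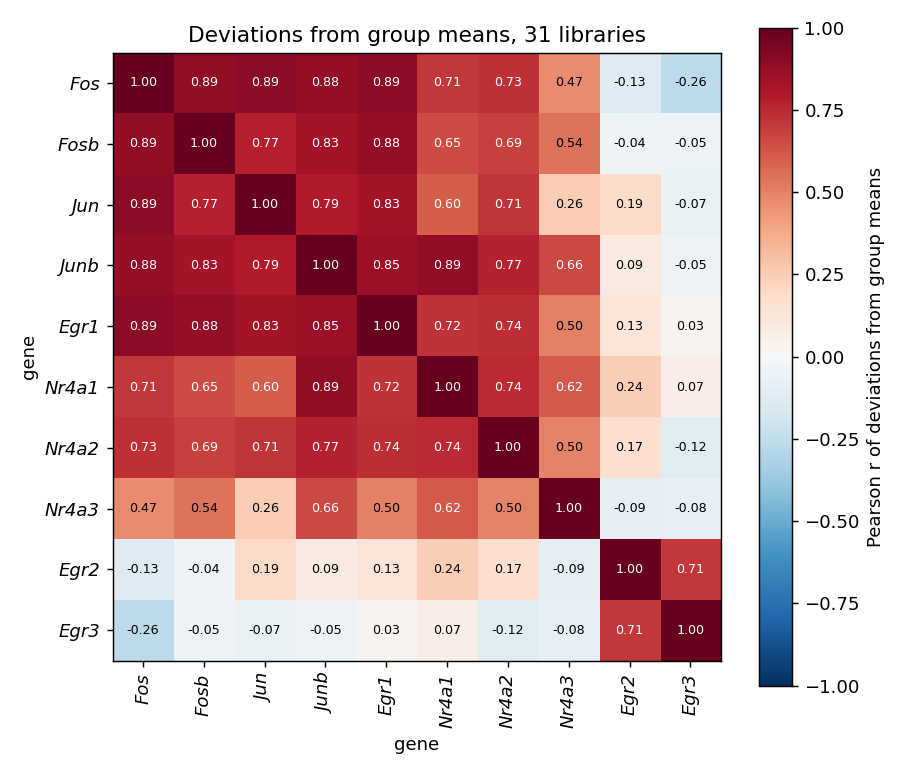
Pearson r between genes of the deviations of log2(value + 1) from group means over 31 libraries. Red is positive and blue negative. Fos, Fosb, Jun, Junb and Egr1 form a block at 0.77 or above, and Egr2 and Egr3 pair at 0.71 apart from it.

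The prefix went with this pattern in part. JL019 libraries had the higher mean in 8 of 10 groups for Nr4a2, Egr1, Fos and Fosb, in 7 for Junb, in 6 for Jun, Nr4a1 and Nr4a3, and in 4 and 2 groups for Egr2 and Egr3. In 8 of the 10 groups every JL019 library exceeded every JL027 library for Egr1 and for Fos, a count of 8 or more that 0.293% of all genes reached. In the 3 day 0 groups this compares 1 library with 1. The groups that went the other way were CD8 day 0 and Treg day 0 for both genes. In a fit with prefix beside group, chosen after the data had been seen, JL027 was lower by limma estimates of -1.17 ± 0.31 for Fos, -1.05 ± 0.25 for Fosb and -0.79 ± 0.18 for Egr1 (adjusted p = 0.177, 0.128 and 0.121). This fit took the libraries of a recipient as independent, although their CD4 and CD8 deviations had r of 0.95, 0.85 and 0.78 for these genes. Its SEs and p-values may therefore be too small. Here 0 of 10 genes passed (0.119% of all genes did), 6 had an unadjusted p under 0.05, and without either Treg day 0 library Egr1, Fos and Fosb passed (adjusted p = 0.024, 0.0476 and 0.0072 without JL019). Of the 13 heat shock genes 0 passed and 1 had an unadjusted p under 0.05.

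Cells labelled Treg at day 0 had the highest mean of 9 of the 10 genes. Without the JL027 Treg library this held for Egr2, Egr3, Fosb and Jun, while the JL019 library lay below the mean of another group for Nr4a1, Nr4a3, Egr1, Fos and Junb (Fos 15773 against 24583 in CD4 syngeneic cells). Fosb was 803 and 2411 in Treg and 91.4 and 99.3 in CD4 day 0 cells, higher by 3.85 ± 0.87 (adjusted p = 0.008, limma). Nr4a2 was 231 and 974 against 71.0 and 23.5, higher by 3.50 ± 0.73 (adjusted p = 0.00413), and Nr4a3, which supports Treg maintenance together with Nr4a1, was 216 and 912 against 62.6 and 77.1, higher by 2.66 ± 0.62 (adjusted p = 0.0109). The JL027 Treg library exceeded its JL019 counterpart in each of the 10 genes, by far in some, with Nr4a1 at 7728 against 1395 and Fos at 42833 against 15773, while Egr2 was 454 and 444 and Jun 24924 and 22999 in the same pair.

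In this comparison 3 of 10 genes passed (3.89% of all genes), and with the prefix as a block 6 did (4.79%), Fos, Jun and Junb being added. The labels do not join the day 0 libraries of a prefix to 1 animal, and their deviations from the group means did not go together (r of -0.17 between CD4 and Treg). The Treg minus CD4 differences within JL019 and JL027 were 2.01 and 3.60 for Fos, 1.42 and 1.69 for Jun and 0.38 and 2.10 for Junb, so the Fos and Junb calls rest on a spread estimated over all recipients. The median change of the 10 was 1.43, against 0.07 over all genes. Without the Treg JL027 library or the CD4 JL027 library 0 passed, and without the CD4 JL019 library 1 did. Heat shock sums were 193273 and 235842 in Treg and 97037 to 102953 in CD4 day 0 cells, with 3 of 13 genes higher. Myeloid sums were 3175 and 3768 against 967 and 1897 (1 of 14 genes called higher), 4 of 5 Treg genes were higher, and 1 of 9 erythroid and 1 of 6 NK cell genes were lower. The part of these lists was not tested. Foxp3 went against the label in both pairs, as given above. With only the groups compared, the Nr4a2 and Nr4a3 calls were lost (adjusted p = 0.102 and 0.0884), and Egr2 and Jun passed beside Fosb (adjusted p = 0.0267 and 0.000237).

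Treg recovered from the recipients had less Egr2 and Jun than Treg at day 0. Egr2 was 117, 93.9 and 160 after 444 and 454, lower by an estimate of -1.88 ± 0.42 (adjusted p = 0.00241, limma), and Jun was 5702, 4443 and 7564 after 22999 and 24924, with -2.05 ± 0.50 (adjusted p = 0.00501, limma). Neither gene's groups overlapped (50.9% of all genes), and both fell within each prefix, Egr2 by 2.07 (JL019) and 1.50 (JL027) and Jun by 2.19 and 1.72. Here 2 of 10 genes passed (13.3% of all genes) and the median change was -0.79 against -0.07 over all genes. Without the day 0 library JL027 the Jun call was lost (adjusted p = 0.0561). Junb was 19339, 14626 and 17071 after 16488 and 48321. Of other markers, 5 of 9 erythroid genes were higher in recovered Treg, with sums of 1743 to 50642 against 142 and 511, 3 of 6 NK cell genes were lower and 1 higher, with sums of 259 to 420 against 335 and 516, and 2 of 13 heat shock genes were lower and 1 higher, with sums of 211710 to 244152 against 193273 and 235842. Their part in the result was not tested.

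Recovered Treg and CD4 conventional cells of Treg-treated recipients differed in 0 of 10 genes by limma (30.0% of all genes, 1 with an unadjusted p under 0.05), and in 0 with the recipient as a block (31.2%). Nr4a1 was 2809, 1817 and 2348 in Treg and 670 to 1625 in CD4 cells, without overlap (36.5% of all genes), a difference of 1.00 ± 0.58 (adjusted p = 0.192), or 0.60 ± 0.50 with the recipient as a block (adjusted p = 0.383). Egr2, at 93.9 to 160 in Treg and 147 to 311 in CD4 cells, had -0.74 ± 0.35 (adjusted p = 0.111). The median over all genes was 0.14 in this comparison. Relative to it the Nr4a1 difference is smaller and the Egr2 difference larger, and with the libraries centred on their median Egr2 passed (adjusted p = 0.0301). In recovered Treg 5 of 14 myeloid genes were lower and 1 higher, 3 of 13 heat shock genes lower and 1 higher, 2 of 6 NK cell genes lower and 4 of 5 Treg genes higher than in CD4 cells, with myeloid sums of 2066 to 7407 against 24153 to 88761, and their part was not tested.

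Other genes of the pathway are given for context from lists written with earlier results of these data known, and the genes named are those with the lowest p of their list and direction. Against day 0, where 24.0% of all genes changed in CD4 and 30.4% in CD8 allogeneic cells, 14 of 32 other early induced genes rose and 1 fell in CD4 allogeneic cells, and 14 rose and 2 fell in CD8. The 2 with the lowest p among those that rose were Bhlhe40, a repressor induced by TCR signals (6.51 and 7.60), and Rgs1, which damps chemokine receptors (2.40 and 4.55). Zfp36l1, an mRNA-decay factor, fell by 1.21 and 1.47. Of 17 feedback phosphatases and brakes, 7 rose and 2 fell in CD4 cells, led by the MAP kinase phosphatases Dusp5 (3.02) and Dusp4 (3.24), with Dgka, which consumes diacylglycerol, down by 1.53 and Nab2, the EGR corepressor, down by 1.40. In CD8 cells 5 rose, led by Ndrg1 (3.49) and Dusp4 (5.16), and Dgka fell by 1.16. Batf, an AP-1 partner, rose by 2.65 and 2.67, with Atf3 at 4.18 in CD4 and Maff at 1.77 in CD8 cells, so 3 and 2 of 8 other AP-1 genes rose and 0 fell. Of the upstream signalling genes, 1 of 26 rose and 1 fell in CD4 cells (Ppp3cc, a calcineurin subunit, 1.58; the JNK gene Mapk8, -0.97), and 2 rose and 3 fell in CD8.

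Against syngeneic cells, where 14.6% of all genes differed in CD4 and 21.1% in CD8 cells, 5 of 17 brakes were higher in CD4 allogeneic cells and 0 lower (Dusp2 by 1.67 and Dusp5 by 2.54), and 6 were higher and 0 lower in CD8 (Ndrg1 by 2.53 and Rnf128, the ubiquitin ligase GRAIL, by 1.88). The early induced list went both ways, with 8 higher and 2 lower in CD4 and 8 higher and 6 lower in CD8 cells. Bhlhe40 was higher by 3.24 and 3.78, whereas the cytokine gene Tnf had -1.49 and -2.29 and Myc, a transcription factor gene of growing T cells, had -2.10 in CD8. Batf was higher by 1.69 and 1.47. The 10 immediate early genes had medians of 0.05 and -0.54 in these comparisons, and the brakes 0.81 and 0.77.

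With Treg, where 22.2% of all genes differed in CD4 cells and 0.0657% in CD8 cells, 12 of 26 upstream genes were lower and 1 higher in CD4 cells, led by Nfatc1, the inducible NFAT gene (-1.98), and Map2k4, a JNK kinase (-0.85), with the Ras gene Nras at 0.43. Of the brakes 5 were lower and 0 higher (Ndrg1 at -1.26 and the ERK phosphatase gene Dusp6 at -0.96), and of the early induced genes 4 were lower and 1 higher (Zfp36l2 at -2.14 and the NF-kB inhibitor gene Tnfaip3 at -2.36, against Crem, a cyclic-AMP responsive repressor, at 1.35). Batf was higher by 0.85. In CD8 cells Crem alone of these lists passed, at 1.00 (adjusted p = 0.0424, limma). The list medians in CD4 cells were -0.55 for upstream genes and -0.76 for brakes, against -0.0018 over all genes and -0.19 for the 10 genes.

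The genes with the most similar pattern over the 31 libraries, among 10552 genes with a mean of at least 50, differed between the 10, here with the group means left in. For Fos they were Dusp1 (r = 0.92), Ppp1r15a (0.92) and Plk2 (0.89), and for Fosb Dusp1 (0.91), Klf4 (0.87) and Ppp1r15a (0.86). Junb went with Ppp1r15a (0.93), Hexim1 (0.88) and Nfkbid (0.88), Jun with Rhob (0.86), Dnajb1 (0.84) and Irs2 (0.82), Egr1 with Zfp36 (0.86), Ppp1r15a (0.82) and Kdm6b (0.81), and Nr4a1 with Plk2 (0.88), Ppp1r15a (0.88) and Csrnp1 (0.87). For Nr4a3 they were Maff (0.83), Hexim1 (0.80) and Areg (0.80), and for Nr4a2 Nfil3 (0.86), Hspa2 (0.85) and Rnpep (0.84).

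Egr2 was closest to Parp3 (0.88), Bcl6, the factor of follicular helper cells (0.86), and Cxcr5, the chemokine receptor of those cells (0.85). Egr3 was closest to Kdm5b (0.83), Parp3 (0.83) and Smurf2 (0.83). Ppp1r15a, a gene of the integrated stress response, was thus among the 3 closest genes for 5 of the 10, Nr4a1, Egr1, Fos, Fosb and Junb, and for neither Egr2 nor Egr3. These correlations are a description over libraries that share groups and prefixes.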

How the data were processed

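RNA of 31 libraries was extracted with TRIzol, amplified with SMARTer v4 chemistry and prepared with Nextera XT, per the labels' protocols. The deposited table holds a signal per gene and library, counts normalised between libraries by the authors. The authors' column names, per the file headers, are those of DESeq2 output. For the authors' processing, the submitters' processing notes name FastQC 0.11.7, kallisto, DESeq2 and the builds GRCm38 and mm10, without their roles. The mean over libraries equals the deposited base mean, 0.0469% of values above 0 are whole (within 1e-06), reads were therefore not recovered and depth is unknown. Normalised counts keep gene length, and reads shared by related genes cannot be traced.

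Values were taken as log2(value + 1), which understates changes of low genes. A group-means model over all libraries was fitted with limma 3.58.1 in R 4.3.3 (trend and robust), with Benjamini-Hochberg adjustment over 16741 genes and a threshold of 0.05. A minimum mean of 1 removed 0 genes. The scripts were tested on simulated data. Descriptions used pandas 2.3.3 and numpy 2.4.6 in Python 3.11.15, and figures matplotlib 3.10.9.

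A recipient was a prefix, treatment and number in the titles, and 11 recipients had a CD4 and a CD8 library. At day 0 the prefix took the place of the recipient. Same-recipient libraries deviated from their group means with a median r of 0.225 (13 of 21 pairs above 0.1), so the recipient came from the labels and not from this check. The recovered Treg library of JL027 has no number and was joined to no recipient.

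The genes, lists and tests were chosen with earlier results of these data known. Named were the 10 genes, up to 2 passing genes per list and direction with the lowest p in a comparison described, and for each of the 10 the 3 genes of highest Pearson r among genes with a mean of at least 50, leaving out predicted, mitochondrial, ribosomal, immunoglobulin and receptor-segment genes. Lists were 8 other AP-1, 32 early induced, 17 brake, 26 upstream and 13 heat shock genes, and markers of T cells, CD4 or CD8 lineage, Treg, myeloid, B, erythroid and NK cells. Alternatives were a pseudocount of 0.1, a minimum mean of 10, median centring, removal of a gene-length trend, array weights, a model of only the compared groups, a replicate block by label, by prefix or by recipient, and leaving out each library. A fit with no minimum mean was also counted, although it equals the main fit. Leaving out the myeloid-rich library everywhere (also under the recipient block, and with CD4 syngeneic JL027), the prefix block and the prefix comparison were added after seeing the data. TCR tables were not used here.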

Additional observations from a re-analysis of the deposited data

Results flagged for a closer look

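In CD4 allogeneic cells, Egr3 was 42.6 in library JL027-1 and 122, 126 and 122 in the other 3. The gap of that library to its nearest neighbour was 0.964 of the whole range, above the limit of 0.829 for 4 libraries. It was the only one so far out among 40 combinations of a gene and a group of 4 libraries, where chance would give about 1 in 20. That CD4 library was the lowest of its group for 8 of the 10 genes, all but Nr4a2 and Nr4a3, and the CD8 library of the same recipient was the lowest of its group for 9 of 10, all but Nr4a3, with Egr3 at 12.6, Fos at 2393 and Jun at 2266.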

How the results depend on the processing

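Counts of the 10 genes that passed were recomputed for 18 comparisons, the prefix comparison only with single libraries left out. They stayed within 1.5 times in 132 cases and moved in 50, apart from leaving out single libraries. The 132 include the fit with no minimum mean, which equals the main fit in every comparison. For allogeneic against day 0 in CD4 cells the count of 1 became 2 with a minimum mean of 10, with the length trend removed, with the prefix as a replicate block or without the myeloid-rich library, 3 with array weights and 4 with only the groups compared. For CD8 syngeneic against day 0 it became 2 with a minimum mean of 10, median centring, length trend removed, the myeloid-rich library left out or only the groups compared, and 8 with array weights. For CD4 syngeneic against day 0 it became 2 with array weights and 0 without the myeloid-rich library or with only the groups compared. For CD4 Treg-treated against allogeneic 0 became 1 with median centring or length trend removed and 2 with array weights or only the groups compared. Array weights gave 1 in CD4 and 7 in CD8 cells for allogeneic against syngeneic, 6 for Treg against CD4 at day 0, 5 for the difference of the allogeneic effects, and 1 at day 0 and 5 in syngeneic recipients for CD8 against CD4. Recovered Treg against CD4 cells became 1 with median centring, array weights or only the groups compared, and the difference of the allogeneic effects 1 with a minimum mean of 10 or median centring. CD8 against CD4 became 1 in syngeneic recipients without the myeloid-rich library and, with only the groups compared, 4 at day 0, 5 in allogeneic and 1 in Treg-treated recipients, where removing the length trend also gave 1. With array weights CD8 against CD4 cells in syngeneic recipients reversed and passed for Fos (1.40), Jun (0.83) and Junb (0.93). The cause of these moves was not tested.

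With the recipient as a replicate block, CD8 against CD4 became 3 at day 0, 3 in syngeneic, 6 in allogeneic and 5 in Treg-treated recipients, Treg against CD4 at day 0 became 6, and the difference of the allogeneic effects 1. With the myeloid-rich library also left out, CD8 against CD4 in syngeneic recipients became 4. Libraries of other recipients with the same replicate label share only a number (51 pairs, median r of -0.0031). With that label as a replicate block, all 4 comparisons with day 0 in CD4 and CD8 cells became 0, where the day 0 labels meet few others and fewer libraries inform the estimate, Treg recovered against day 0 became 7, CD4 Treg-treated against allogeneic 1, and CD8 against CD4 1 at day 0 and 1 in syngeneic recipients.

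Leaving out 1 library moved 22 of 155 counts. The ranges were 0 to 5 for CD8 and 0 to 3 for CD4 syngeneic against day 0, 0 to 3 for Treg against CD4 at day 0 and for the prefix comparison, 1 to 2 for CD4 allogeneic against day 0, Treg recovered against day 0 and CD8 against CD4 in Treg-treated recipients, and 0 to 1 for CD4 allogeneic against syngeneic, CD4 Treg-treated against allogeneic, CD8 against CD4 in syngeneic recipients and the difference of the allogeneic effects. A group left with 1 library is assumed to vary like the others. Day 0 groups hold 2 libraries and the read depth is unknown.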

Other observations

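In the prefix comparison 9 of 9 erythroid genes had positive estimates for JL027, with a median of 1.62 on the log2 scale, 0 of 9 passing and 7 with an unadjusted p under 0.05, while 8 of the 10 immediate early genes had negative ones. The part of erythroid RNA in the prefix difference was not tested.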
